A study of Mus musculus with 8 samples.

Results

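The genes described here encode the proteasome, taken as every mouse symbol that begins with Psm, a letter from a to g, and a digit. Of 54 such symbols in the annotation, 49 were among the 20172 genes of the table, and all 49 passed the filter on low values (10 or more normalized counts on average across the 8 libraries). *Psma8* and 4 pseudogenes of *Psmb5*, *Psmb6* and *Psmb7* were not analysed here. Membership was set by name and not by any measured value. Of the 49, *Psme2b* is a near-identical copy of *Psme2* and *Psmc3ip* encodes no proteasome protein, so both are counted apart, which left 47 proteasome genes.

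RNA was sequenced from regulatory T cells (Tregs) of the spleen of female mice that carry a YFP-Cre fusion at *Foxp3*, so that *Foxp3*-expressing cells fluoresce yellow. The labels name no treatment, all libraries share this genotype, and the labels give no age. YFP+ CD4 T cells were sorted by surface TNFR2 into TNFR2+ and TNFR2- Tregs, with 4 libraries each (replicates 1 to 4). The sort, and not a perturbation, made the groups, and nothing in the labels tells separate mice from repeat preparations, so p values measure the spread between these libraries only.

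The proteasome is the protease that degrades proteins tagged with ubiquitin. Its barrel-shaped core is built of outer rings of alpha subunits, which gate the entrance, and inner rings of beta subunits, of which *Psmb5*, *Psmb6* and *Psmb7* encode those that cut. A regulatory cap on the core holds a ring of ATPases that unfold the substrate (the *Psmc* genes) and scaffold, ubiquitin receptor and deubiquitinase subunits (most *Psmd* genes). In lymphocytes, and after interferon gamma, *Psmb8*, *Psmb9* and *Psmb10* can take the place of the cutting subunits, which gives the immunoproteasome and alters the peptides offered to MHC class I. The activators encoded by the *Psme* genes dock on the core in place of the cap.

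The sum of normalized counts per library ran from 9576920 to 11492762, with an estimated depth of 9100000 to 12110000 reads. *Tnfrsf1b*, which encodes TNFR2, was higher in the sorted TNFR2+ cells (log2 fold change 0.90, SE 0.16, adjusted p = 0.00449 from limma, SE being the standard error here and below). TNFR2- Treg replicate 3 stood apart on the second principal component of all genes, which held 16.7% of the variance, so some values without it are given below. Other values moved too. Without it the median log2 fold change went from 0.39 to 0.46 in the alpha ring and from 0.46 to 0.34 in the beta ring. T cell markers were abundant in every library (5 of 5 genes, summing to 14640 to 16910 normalized counts in TNFR2+ and 11020 to 14750 in TNFR2- Tregs), as were Treg markers (5 of 5 genes, 19560 to 22960 and 13770 to 17520). The higher Treg sums of TNFR2+ libraries came from *Ctla4*, *Ikzf2* and *Tnfrsf18*, whereas *Foxp3* and *Il2ra* together summed to 5457 to 6223 in TNFR2+ and 6514 to 7765 in TNFR2- Tregs. CD8 T cell markers summed to 46.0 to 64.2 and 44.5 to 76.1, B cell markers (8 of 10 genes in the table) to 413 to 524 and 206 to 482, and myeloid markers (4 of 10) to 200.9 to 276.9 and 191 to 229. Erythroid (1 of 6) and platelet (1 of 4) markers reached 12.1 and 221 at most. Cytotoxic lymphocyte markers (4 of 6) summed to 64.6 to 156 in TNFR2+ and 15.04 to 58.2 in TNFR2- Tregs, a gap carried by *Nkg7*, without which the sums overlapped (10.5 to 63.8 and 13.01 to 54.1), and their part in the results was not tested.

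Across the 47 proteasome genes, 42 had a log2 fold change above 0 in TNFR2+ over TNFR2- Tregs and 5 below 0, whereas 49.3% of the 13990 genes tested lay above 0. Most differences were small. The median log2 fold change of the 47 genes was 0.23, against -0.01 over all genes tested and 0.21 without TNFR2- Treg replicate 3. Only 2 genes passed the test (limma on log2(normalized count + 1), adjusted p under 0.05 by the Benjamini-Hochberg method over all genes), *Psma7* and *Psmb3*, both of the core and both higher in TNFR2+ Tregs. These 2 are 4.26% of the 47 genes, beside 4.52% of all genes called higher, and none was called lower, beside 3.39% of all genes. At an unadjusted p under 0.05 from limma, 9 of the 47 proteasome genes were higher, beside 12.3% of all genes, and 1 of the 47 was lower, beside 10.7% of all genes. All 4 TNFR2+ libraries exceeded all 4 TNFR2- libraries in 6 proteasome genes, or 12.8%, beside 8.08% of all genes, and no proteasome gene had every TNFR2+ library lower, beside 7.29% of all genes. Among the 8324 genes with a mean of at least 100, 49.0% lay above 0, 6.08% were called higher and 9.86% were higher without overlap.

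Summed over the 47 genes, normalized counts were 24270, 26340, 24840 and 24170 in TNFR2+ replicates 1 to 4, and 20390, 21480, 21530 and 24030 in TNFR2- replicates 1 to 4. The groups did not overlap, but TNFR2- replicate 4 came within reach of the lowest TNFR2+ library. For 36 of the 47 genes, the 95% confidence interval of the log2 fold change lay wholly between -1 and 1, and for 38 its upper bound was under 1. In sorted cells sequenced in bulk, a change in each cell and a change in the share of cells that express a gene cannot be told apart. The plot of fold changes shows the 47 genes by their place in the complex.

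**Figure D1:**
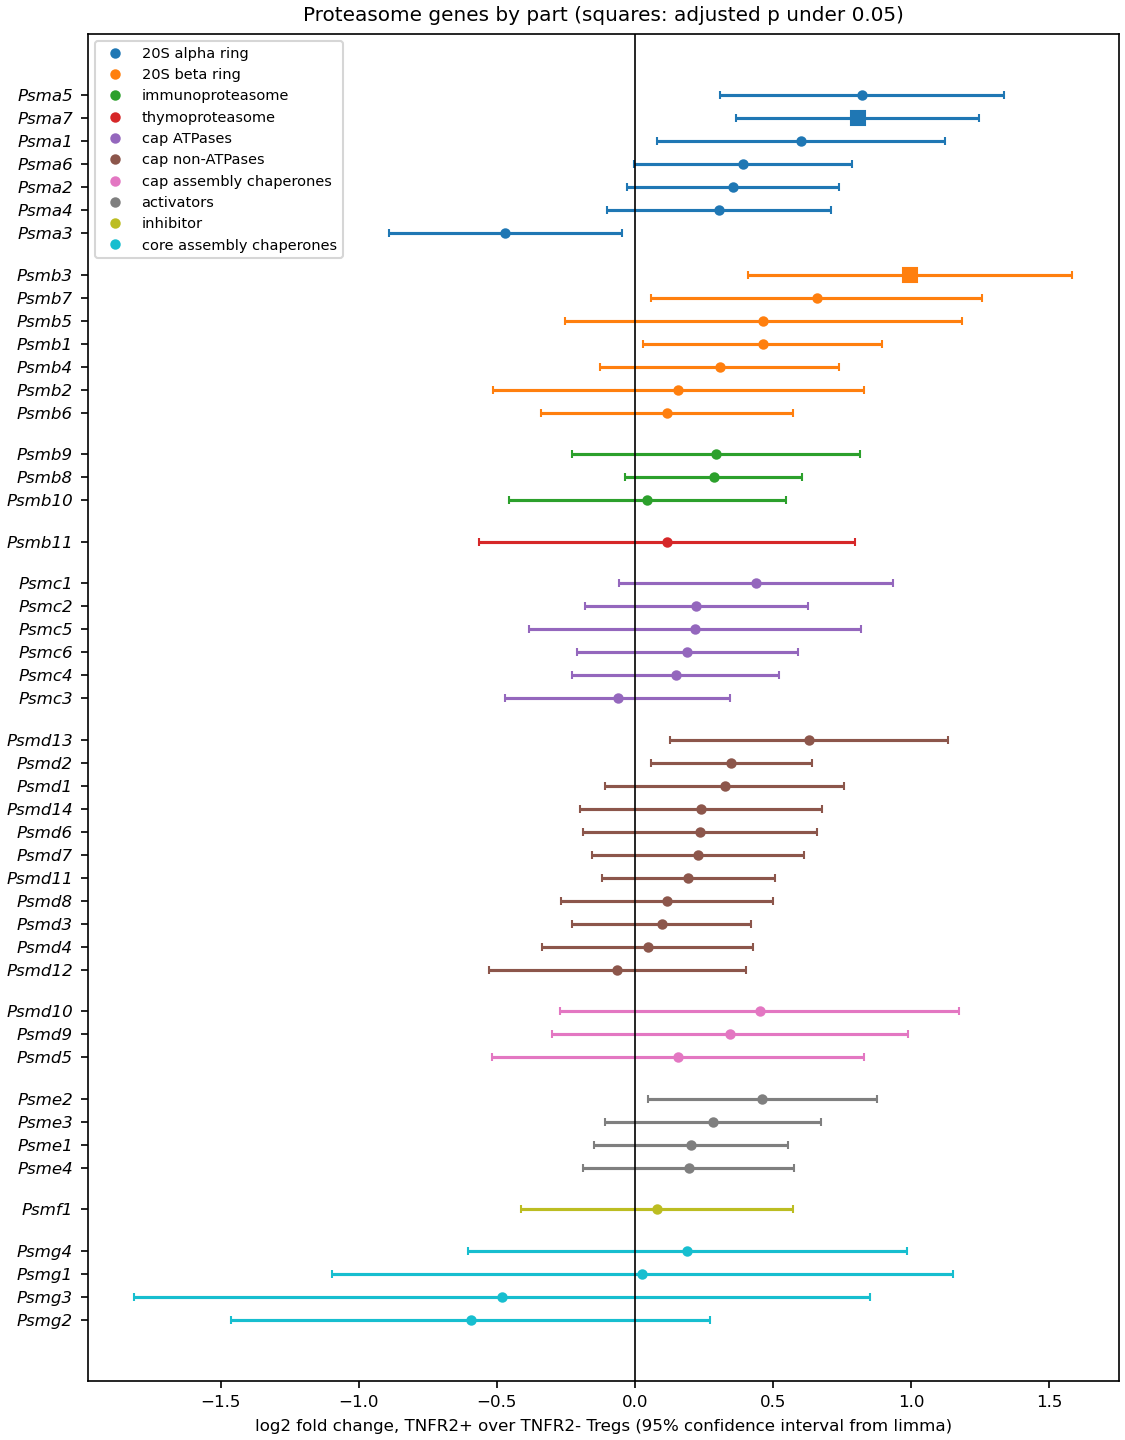
Log2 fold change (x axis, TNFR2+ over TNFR2- Tregs, 4 libraries each) of 47 proteasome genes (y axis), coloured by part, with 95% confidence intervals from limma; squares mark adjusted p under 0.05. Points lie right of 0 for 42 genes, *Psma7* and *Psmb3* are the squares, and the intervals of the core assembly chaperones are wide.

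The core held both genes that passed the test and the higher median. Over its 14 alpha and beta genes (without the immunoproteasome and thymus subunits), 13 had a log2 fold change above 0, the median was 0.43, and 4 genes (28.6%) were higher without overlap, beside 8.08% of all genes and 9.86% of the 8324 more abundant ones. Over the 17 ATPase and other subunits of the cap, 15 lay above 0, the median was 0.22 and 2 genes (11.8%) were higher without overlap, a share near those of all genes. The difference between core and cap was not tested, and *Psma3* is an exception within the core.

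In the alpha ring, *Psma7* (chromosome 2 of GRCm38, 180036374 to 180042433, minus strand) had 882, 759, 771 and 646 normalized counts in TNFR2+ replicates 1 to 4, and 299, 432, 474 and 580 in TNFR2- replicates 1 to 4. All TNFR2+ libraries lay above all TNFR2- libraries. The means were 764 ± 96.6 and 446 ± 116 (SD, n = 4 each), 0.81 apart on the log2 scale (SE 0.20, adjusted p = 0.0279 from limma). *Psma5* (chromosome 3, 108256926 to 108279974, plus strand) had 205, 225, 244 and 190.0 normalized counts in TNFR2+ and 129, 103, 106 and 153 in TNFR2- Tregs. It too did not overlap, and it was the nearest proteasome gene outside the threshold, at a log2 fold change of 0.82 with an SE of 0.24 (adjusted p = 0.0521 from limma). *Psma5* has 2 near-identical processed pseudogenes that are not in the table, and how many reads went to them could not be checked. *Psma1*, named after its values were seen because its groups did not overlap, was at 0.60 on the log2 scale (adjusted p = 0.154). *Psma2*, *Psma4* and *Psma6* had values between 0.30 and 0.39.

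*Psma3* was the only alpha gene with a negative value. It had 1801, 1676, 1003 and 1668 normalized counts in TNFR2+ replicates 1 to 4 and 2342, 2023, 2482 and 1578 in TNFR2- replicates 1 to 4. TNFR2+ replicate 3 was the lowest library, and TNFR2- replicate 4 overlapped the TNFR2+ group. On the log2 scale its fold change was -0.47 with an SE of 0.20 (adjusted p = 0.170 from limma). *Psma3* has 3 near-identical processed pseudogenes, of which only *Gm13835* is in the table. *Gm13835* was listed at 834 in TNFR2+ replicate 3 and at 0 in TNFR2- replicate 3, and at 211 to 420.2 in the other libraries. Reads of *Psma3* and its copies may be split between them by the estimation of transcript abundance. How many reads went to the copies outside the table could not be checked. The sum of *Psma3* and *Gm13835* was 2012, 1997, 1837 and 1922 in TNFR2+ and 2591, 2443, 2482 and 1993 in TNFR2- Tregs, a log2 difference of -0.29 between groups (exact two-sided permutation test, p = 0.0857), and TNFR2+ replicate 3 did not stand apart in the sum.

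In the beta ring all 7 genes had a log2 fold change above 0, between 0.12 (*Psmb6*) and 1.00 (*Psmb3*). *Psmb3*, a beta subunit without a cutting site (chromosome 11, 97703399 to 97713500, plus strand), had 294, 332, 264 and 232 normalized counts in TNFR2+ and 91.4, 118, 179 and 192 in TNFR2- Tregs. The groups did not overlap. With means of 280.5 ± 42.5 and 145 ± 48.0 (SD, n = 4 each), it reached a log2 fold change of 1.00, with an SE of 0.27 (adjusted p = 0.0397 from limma). *Psmb3* has 3 near-identical pseudogenes that are not in the table, and how many reads went to them could not be checked. The calls of *Psma7* and *Psmb3* both depended on single libraries. Without TNFR2+ replicate 1, 2 or 3, or without TNFR2- replicate 1 or 2, neither *Psma7* nor *Psmb3* passed the threshold, and without TNFR2+ replicate 4 *Psma7* alone passed it. With each of the 8 libraries omitted in turn, log2 fold changes ran from 0.63 to 0.95 for *Psma7* and from 0.80 to 1.15 for *Psmb3*. Both passed without TNFR2- replicate 3, and without TNFR2- replicate 4 *Psma5* passed as well. Without an intensity trend in the variances none of the 47 genes passed it.

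The 3 cutting subunits of the standard core did not pass the test. *Psmb5* encodes the chymotrypsin-like subunit and had 75.8, 76.9, 81.4 and 75.2 normalized counts in TNFR2+ and 46.9, 44.6, 77.9 and 59.0 in TNFR2- Tregs. Its TNFR2+ libraries were tightly grouped, and TNFR2- replicate 3 lay among them (log2 fold change 0.47, adjusted p = 0.445). *Psmb6*, the caspase-like subunit, had 311, 327, 436 and 274 in TNFR2+ and 317, 236, 357 and 329 in TNFR2- Tregs, with full overlap (log2 fold change 0.12, adjusted p = 0.795). *Psmb7*, the trypsin-like subunit, had 316, 309, 179 and 280.0 in TNFR2+ and 141, 229, 118 and 204 in TNFR2- Tregs (log2 fold change 0.66, adjusted p = 0.175), where TNFR2+ replicate 3 fell within the TNFR2- range.

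**Figure D2:**
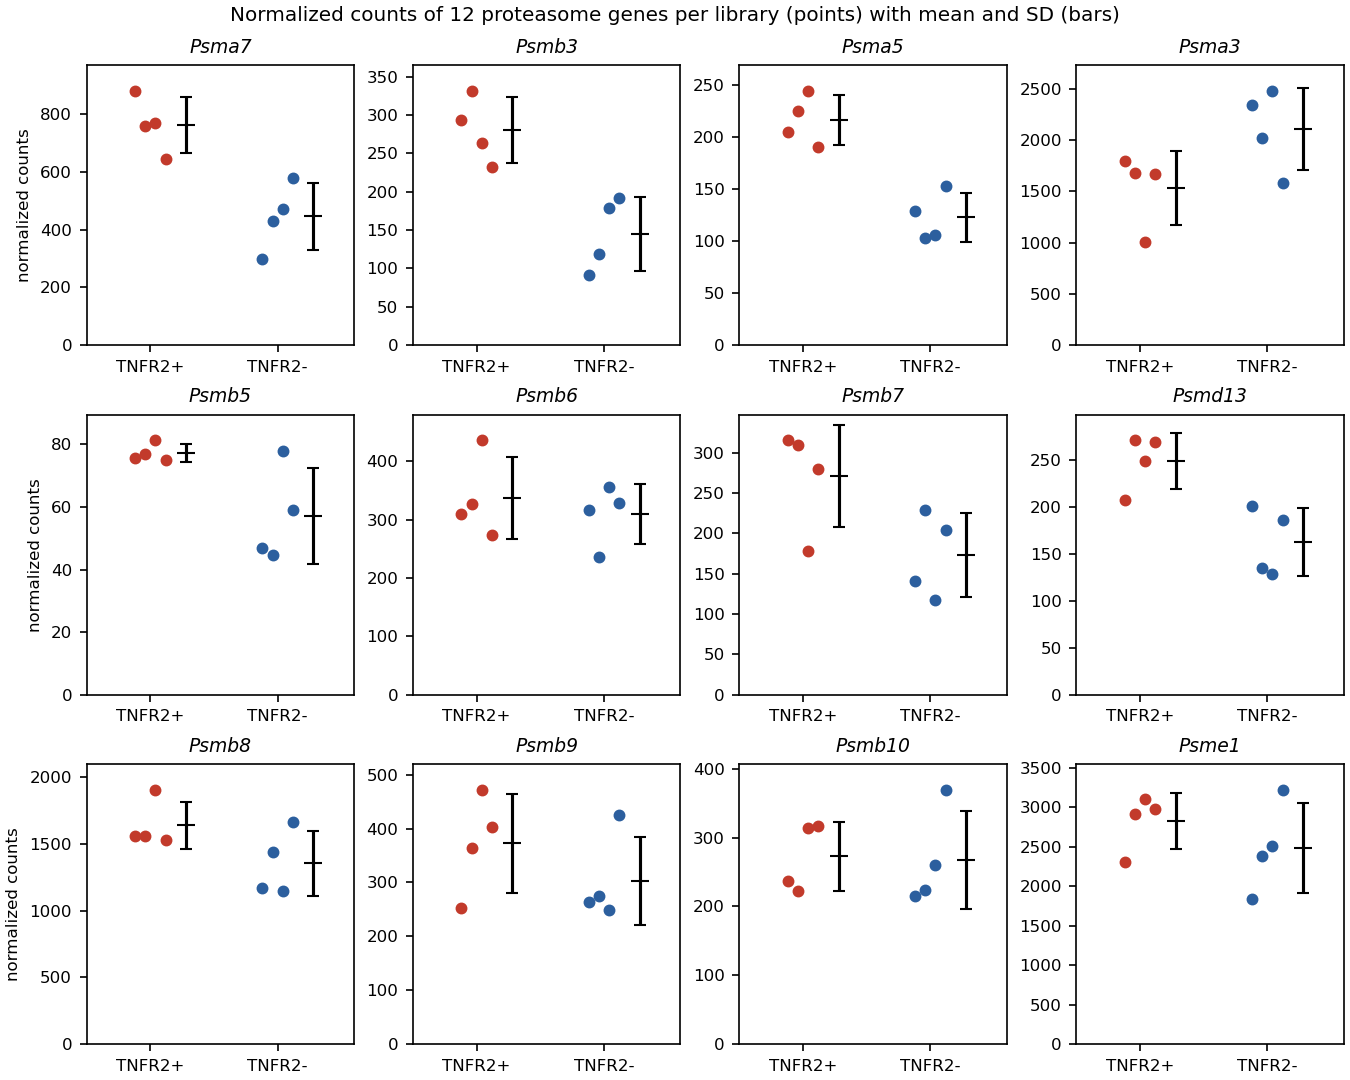
Normalized counts (y axis, from 0) of 12 proteasome genes in each TNFR2+ (red) and TNFR2- (blue) Treg library, with the mean and SD of each group (black, n = 4). *Psma7*, *Psmb3*, *Psma5* and *Psmd13* show no overlap between groups, the mean of *Psma3* is lower in TNFR2+ Tregs, and the immunoproteasome genes and *Psme1* overlap.

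Promoter stretches of some core and cap genes are shown, as 13 of 14 core and 15 of 17 cap genes had log2 fold changes above 0. Few of these genes passed the test, and of those shown only *Psmb3* did. The sequences are from RefSeq (GRCm38.p6), end at or before the start of the annotated transcripts, and run in the direction of transcription. They belong to *Psmb3*, the largest log2 fold change of the 47 (chr11:97703249-97703398, plus strand), to *Psma5* (chr3:108256728-108256877, plus strand), to *Psmb5* (chr14:54618023-54618172, minus strand) and *Psmb6* (chr11:70525207-70525356, plus strand) as cutting subunits, and to *Psmd2* of the cap (chr16:20651502-20651651, plus strand). Capitals mark letters of the motifs searched on both strands, which were CCAAT (the NF-Y box), GAAANNGAA (core of the interferon-stimulated response element), TGACNNNGC (core of the antioxidant response element, bound by the factor encoded by *Nfe2l1*, a regulator of proteasome genes), CCGGAAG (an ETS site) and GGGCGG (a GC box).

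Psmb3: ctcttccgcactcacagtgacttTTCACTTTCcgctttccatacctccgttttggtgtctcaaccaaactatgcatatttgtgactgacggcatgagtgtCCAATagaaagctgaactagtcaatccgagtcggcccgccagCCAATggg

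Psma5: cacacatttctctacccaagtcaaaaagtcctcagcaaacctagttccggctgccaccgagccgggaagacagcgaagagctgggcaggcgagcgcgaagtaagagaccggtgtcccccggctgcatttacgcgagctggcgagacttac

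Psmb5: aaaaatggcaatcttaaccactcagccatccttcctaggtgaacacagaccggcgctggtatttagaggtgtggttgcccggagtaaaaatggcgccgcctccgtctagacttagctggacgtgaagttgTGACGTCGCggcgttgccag

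Psmb6: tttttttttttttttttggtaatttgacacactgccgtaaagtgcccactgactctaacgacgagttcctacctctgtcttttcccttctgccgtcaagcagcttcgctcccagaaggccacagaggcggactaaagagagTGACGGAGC

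Psmd2: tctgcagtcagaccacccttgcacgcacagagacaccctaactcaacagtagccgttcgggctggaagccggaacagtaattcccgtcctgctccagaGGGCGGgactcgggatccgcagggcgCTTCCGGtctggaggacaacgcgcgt

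*Psmb3* holds 2 CCAAT boxes and the interferon element on the other strand, *Psmb5* and *Psmb6* each hold the antioxidant element, *Psmd2* holds a GC box and an ETS site, and *Psma5* holds none of these letters here. Windows of 250 bases before to 50 after the start were found for 40 of the 47 genes (43 windows). The antioxidant element was in 6 of 43 (14.0%), in *Psmb5*, *Psmb6*, *Psmc6*, *Psmd9*, *Psmd12* and *Psme4*, beside 12.4% of 32851 windows of all genes. CCGGAAG was in 15 of 43 (34.9%) beside 8.86%, and GGGCGG in 24 of 43 (55.8%) beside 35.7%. CCAAT was in 14 (32.6% beside 37.4%), GAAANNGAA in 7 (16.3% beside 8.56%), the gamma-interferon activated site TTCNNNGAA in 3 (6.98% beside 8.30%) and the NRF-1 core CGCATGCG in 2 (4.65% beside 1.87%). In the window of *Psmb8* the gamma-interferon site was present, and in that of *Psma7* a CCAAT box and GC boxes were. A match is a run of letters and not a shown site, and the windows were not matched for G and C content.

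None of the 3 immunoproteasome genes passed the test, and *Psmb8* was the most abundant of them. *Psmb8*, the inducible counterpart of *Psmb5* (chromosome 17, 34197721 to 34201454, plus strand), had 1557, 1557, 1904 and 1529 normalized counts in TNFR2+ and 1170, 1439, 1146 and 1659 in TNFR2- Tregs. TNFR2- replicate 4 lay within the TNFR2+ range and the other TNFR2- libraries below it (log2 fold change 0.28, SE 0.15, adjusted p = 0.274). *Psmb9*, the counterpart of *Psmb6* (chromosome 17, 34181987 to 34187764, minus strand), had 252, 363, 472 and 403 in TNFR2+ and 264, 276, 249 and 425 in TNFR2- Tregs (log2 fold change 0.29, SE 0.24, adjusted p = 0.515). *Psmb10*, the counterpart of *Psmb7* (chromosome 8, 105935735 to 105938444, minus strand), had 237, 222, 314 and 317 in TNFR2+ and 215, 224, 260 and 370 in TNFR2- Tregs (log2 fold change 0.05, SE 0.23, adjusted p = 0.939). In all 3 genes TNFR2- replicate 4 was the highest library of its group. It lay within the TNFR2+ range for *Psmb8* and *Psmb9* and above every TNFR2+ library for *Psmb10*.

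The ratio of each inducible subunit to the one it replaces does not depend on how libraries are scaled. The log2 ratio of *Psmb8* to *Psmb5* was 4.34, 4.32, 4.53 and 4.33 in TNFR2+ and 4.61, 4.98, 3.86 and 4.79 in TNFR2- Tregs, a difference of -0.18 (95% interval -0.66 to 0.67 from the exact two-sided permutation test, p = 0.571, adjusted p = 0.571 over the 3 ratios). TNFR2- replicate 3 alone lay below the TNFR2+ libraries, and without it the difference was -0.41 with no overlap (exact p = 0.0286, adjusted p = 0.0857). For *Psmb9* to *Psmb6* the log2 ratio was -0.30, 0.15, 0.11 and 0.56 in TNFR2+ and -0.26, 0.22, -0.52 and 0.37 in TNFR2- Tregs, a difference of 0.18 (95% interval -0.67 to 1.07, exact p = 0.543, adjusted p = 0.571). For *Psmb10* to *Psmb7* it was -0.41, -0.48, 0.81 and 0.18 in TNFR2+ and 0.61, -0.03, 1.13 and 0.85 in TNFR2- Tregs, a difference of -0.61 (95% interval -1.61 to 0.85, exact p = 0.171, adjusted p = 0.514). With 4 libraries against 4 the smallest exact p is 0.0286, so a single ratio cannot go below an adjusted p of 0.0857 over 3 ratios, and these adjusted p values say little. The intervals leave room for differences of more than 0.6 on the log2 scale in either direction.

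**Figure D3:**
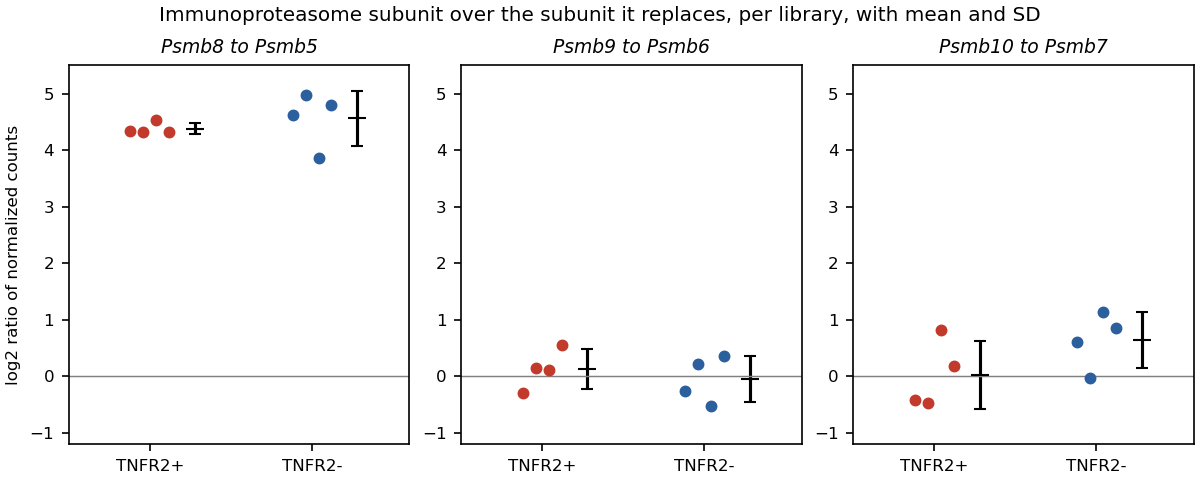
Log2 ratio of normalized counts (y axis) of each immunoproteasome gene to the standard subunit it replaces, in TNFR2+ (red) and TNFR2- (blue) Treg libraries, with mean and SD (black, n = 4). *Psmb8* lies far above *Psmb5* in all 8 libraries, the other pairs lie around 0, and the groups overlap in all 3 panels.

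Per kilobase of transcript (normalized counts divided by the length of the longest annotated protein-coding transcript, so that genes can be compared), *Psmb8* stood at 1005 in TNFR2+ and 831 in TNFR2- Tregs against 86.0 and 63.5 for *Psmb5*, a ratio of 11.7 and 13.1. For *Psmb9* over *Psmb6* this ratio was 0.65 and 0.58, and for *Psmb10* over *Psmb7* it was 0.89 and 1.37. The 3 inducible subunits were thus unequal to each other at the RNA level. Over all libraries *Psmb8* was at 918, *Psmb9* at 250.1 and *Psmb10* at 206 per kilobase, beside a median of 234 over the 47 genes. *Psmb5* has a near-identical processed pseudogene that is not in the table, and reads assigned to it would lower *Psmb5*. *Psmb11*, which encodes the beta subunit of the thymus epithelium, had the lowest level per kilobase of the 47 genes, 26.6. This rank rests on division by a transcript of 4247 bases. By mean normalized counts *Psmb11* (117 in TNFR2+ and 109 in TNFR2- Tregs) lay above *Psmb5* (77.3 and 57.1). Its libraries had 98.8, 102, 104 and 161 normalized counts in TNFR2+ and 112, 105, 151 and 69.0 in TNFR2- Tregs (log2 fold change 0.12, adjusted p = 0.869).

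**Figure D4:**
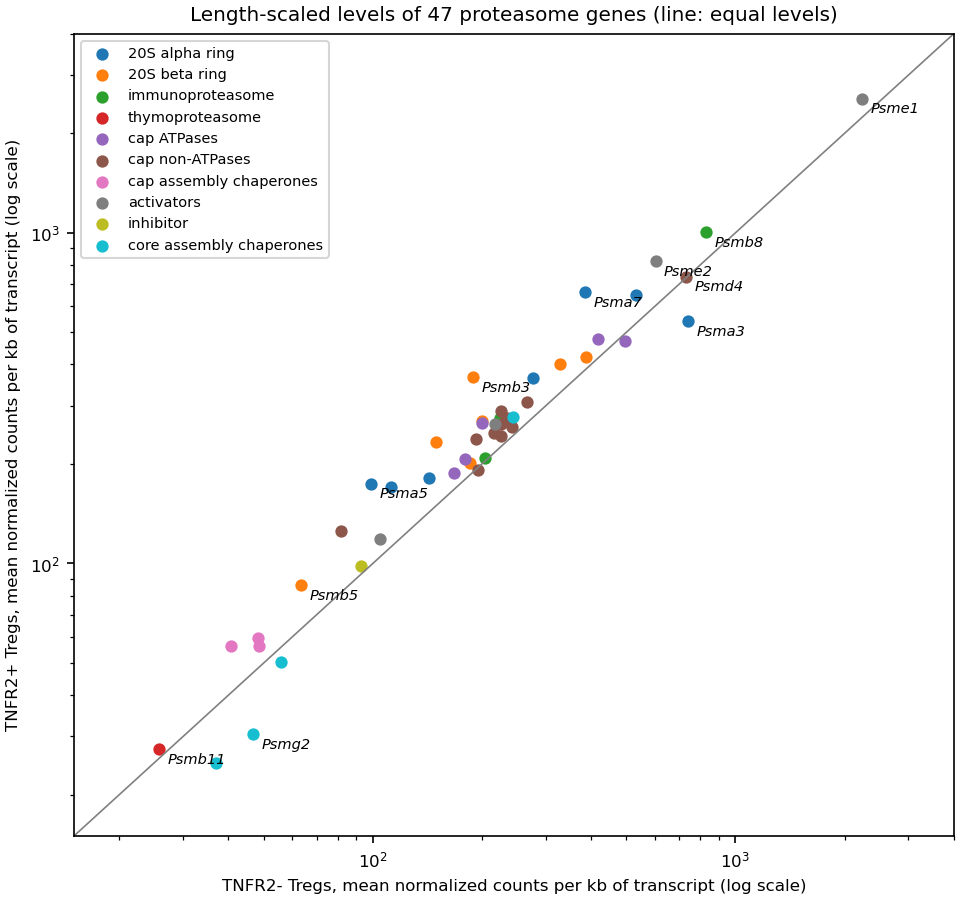
Mean normalized counts per kilobase of transcript in TNFR2- (x axis) and TNFR2+ (y axis) Tregs, both on log scales, for 47 proteasome genes coloured by part, with the line of equal levels. *Psme1* lies highest and *Psmb11* lowest on the TNFR2- axis, *Psma7*, *Psmb3* and *Psma5* lie above the line, and *Psma3* and *Psmg2* below it.

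In the regulatory cap none of the 6 ATPase genes and none of the 11 other subunit genes passed the test. Among the ATPases, *Psmc1* had the highest log2 fold change, with 328, 459, 496 and 411 normalized counts in TNFR2+ and 217, 392, 275 and 385 in TNFR2- Tregs (0.44, adjusted p = 0.276). *Psmc3* had the lowest, with 874, 998, 906 and 657 in TNFR2+ and 1024, 963, 629 and 998 in TNFR2- Tregs (-0.06, adjusted p = 0.882). The groups overlapped in both genes, and across the 6 ATPases the median was 0.20. Among the other cap subunits *Psmd13*, of the lid (chromosome 7, 140881968 to 140898643, plus strand), had 208, 272, 249 and 269.6 in TNFR2+ and 201.2, 136, 128 and 187 in TNFR2- Tregs. These did not overlap, with TNFR2+ replicate 1 just above TNFR2- replicate 1 (log2 fold change 0.63, SE 0.23, adjusted p = 0.121). *Psmd12*, also of the lid, had 352, 463, 439 and 243 in TNFR2+ and 412, 389, 374 and 348 in TNFR2- Tregs (-0.06, adjusted p = 0.9).

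*Psmd2*, the scaffold that receives ubiquitin-like shuttle proteins, was named after its values were seen because its groups did not overlap. It had 777, 929, 829 and 884 normalized counts in TNFR2+ and 679.6, 702, 638 and 659 in TNFR2- Tregs, and both groups were narrow (log2 fold change 0.35, SE 0.13, adjusted p = 0.138). The 11 cap genes without ATPase function ranged from -0.06 to 0.63, with a median of 0.23. The cap chaperones *Psmd5*, *Psmd9* and *Psmd10*, which help to assemble the ATPase ring and leave it afterwards, were low at 48.4 to 53.9 per kilobase. *Psmd10* had 107, 76.4, 66.9 and 70.4 in TNFR2+ and 55.4, 46.6, 56.8 and 73.8 in TNFR2- Tregs (log2 fold change 0.45, adjusted p = 0.465), and *Psmd5* had 286, 374, 188 and 143 in TNFR2+ and 204, 269, 143 and 237 in TNFR2- Tregs (0.16, adjusted p = 0.814). The wide spread of *Psmd5* covered both groups.

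Of the activators, *Psme1* was the most abundant proteasome gene, at 2388 per kilobase. *Psme1* and *Psme2*, induced by interferon gamma, encode the alpha and beta subunits of one ring and lie 5911 bases apart on chromosome 14 (55578123 to 55581529 and 55587441 to 55591113). *Psme1* had 2312, 2913, 3102 and 2974 normalized counts in TNFR2+ and 1839, 2381, 2505 and 3221 in TNFR2- Tregs, and TNFR2- replicate 4 was the highest of all (log2 fold change 0.20, SE 0.16, adjusted p = 0.502). *Psme3*, the nuclear activator, had 708, 754, 533 and 828 in TNFR2+ and 560.5, 476, 702 and 573 in TNFR2- Tregs (0.28, adjusted p = 0.383). *Psme4*, the large single-chain activator, had 719, 684, 793 and 882 in TNFR2+ and 673, 903, 606 and 543 in TNFR2- Tregs (0.20, adjusted p = 0.561). In both the groups overlapped.

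*Psme2* had 742, 986, 758 and 674 normalized counts in TNFR2+ and 521, 618, 746 and 432 in TNFR2- Tregs, or 0.46 on the log2 scale (SE 0.19, adjusted p = 0.169). Its copy *Psme2b* (chromosome 11, 48945354 to 48946190, minus strand), 99.4% identical over 794 bases, showed the opposite sign, with 199.8, 301, 340 and 329.7 in TNFR2+ and 565, 457, 296 and 518 in TNFR2- Tregs (log2 fold change -0.64, SE 0.24, adjusted p = 0.135). Without TNFR2- replicate 3 *Psme2b* passed the test (-0.83, adjusted p = 0.0355 from limma). Reads of both genes can be split between them by the estimation of transcript abundance. The sum of both was 942, 1287, 1099 and 1004 in TNFR2+ and 1086, 1075, 1042 and 951 in TNFR2- Tregs, with means of 1083 and 1038 (exact two-sided permutation test, p = 0.714). The stacked bars of both genes show totals of like height in the 2 groups and a larger share of *Psme2b* in 3 of the 4 TNFR2- libraries.

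**Figure D5:**
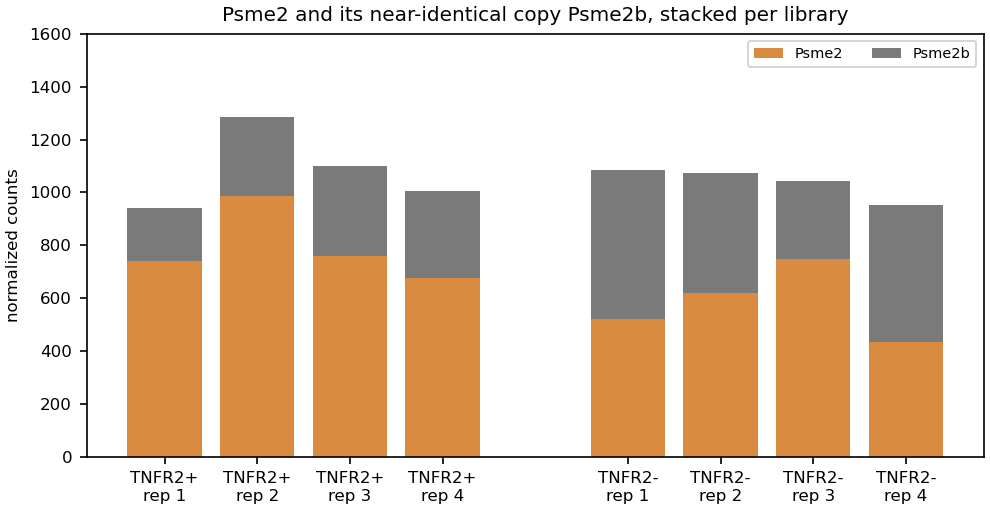
Normalized counts (y axis) of *Psme2* (orange) and its near-identical copy *Psme2b* (grey), stacked for each TNFR2+ and TNFR2- Treg library (x axis). The totals run from 942 to 1287 in TNFR2+ and from 951 to 1086 in TNFR2- Tregs.

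*Psmf1*, an inhibitor of the core in the test tube, had 311, 375, 304 and 503 normalized counts in TNFR2+ and 258, 430.4, 315 and 407 in TNFR2- Tregs (log2 fold change 0.08, adjusted p = 0.875). The assembly chaperones of the core, which hold the alpha ring while it forms, were the part with a negative median (-0.23 over 4 genes, 2 of them above 0, and -0.36 without TNFR2- replicate 3) and the widest spread, with a median coefficient of variation of 36.8% in TNFR2+ and 54.4% in TNFR2- Tregs against 15.7% and 22.8% over all 47 genes. *Psmg2* had 55.1, 38.1, 33.4 and 31.7 in TNFR2+ and 81.7, 39.0, 57.1 and 65.6 in TNFR2- Tregs (log2 fold change -0.59, SE 0.40, adjusted p = 0.415). *Psmg4* had 214, 175, 78.1 and 146 in TNFR2+ and 104, 111, 95.4 and 229 in TNFR2- Tregs (0.19, SE 0.37, adjusted p = 0.810). The 95% intervals of *Psmg1*, *Psmg2* and *Psmg3* each reached below -1, so these data leave room for a difference of that size in them.

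*Psmc3ip*, which the name rule takes but which encodes a recombination factor, had 37.1, 19.4, 130 and 61.9 normalized counts in TNFR2+ and 0, 6.34, 25.7 and 43.3 in TNFR2- Tregs (log2 fold change on the log2(value + 1) scale 2.38, SE 1.04, adjusted p = 0.191). Of the 49 members, 10 had a near-identical copy among annotated transcripts, and for 4 of these a copy was in the table. Those with copies only outside the table were *Psma5*, *Psmb3*, *Psmb5*, *Psmc1*, *Psmd2* and *Psmd11*, and no sum with the copy could be formed for them. Annotated genes on the opposite strand overlapped 19 members and genes on the same strand overlapped 10, and whether the authors' counting used strand is not given. The members lie on 16 chromosomes. The only pairs within 100 kilobases of each other were *Psmb8* with *Psmb9*, *Psme1* with *Psme2*, and *Psmb5* with *Psmb11*.

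Around the proteasome itself, 11 associated factors were measured, of which 9 had a log2 fold change above 0 (median 0.14) and 2 passed the test. *Ecpas*, the adaptor that tethers cap and core, had 1387, 1240, 1612 and 1474 normalized counts in TNFR2+ and 958, 1117, 882 and 836 in TNFR2- Tregs without overlap (log2 fold change 0.59, SE 0.14, adjusted p = 0.0210 from limma). *Txnl1*, a thioredoxin of the cap, had 572, 575, 673 and 539 in TNFR2+ and 338, 437, 438 and 314 in TNFR2- Tregs, also without overlap (0.64, SE 0.18, adjusted p = 0.0419 from limma). Of the 11 factors, 3 were higher without overlap (*Zfand5* was the other), beside 8.08% of all genes. The share of these factors called, 2 of 11, stands beside 4.52% of all genes. *Ecpas* did not pass without TNFR2+ replicate 1, 3 or 4 or without TNFR2- replicate 4, and *Txnl1* passed with a library left out only when that library was TNFR2- replicate 3, so the count ranged from 0 to 2.

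None of the 2 ubiquitin-activating enzymes (median 0.19), 6 shuttle factors (-0.05), 4 genes of the p97 segregase (0.09) and 7 genes that control proteasome transcription (0.12) passed the test. *Nfe2l2*, a factor of the antioxidant response, had 141, 176, 147 and 179 normalized counts in TNFR2+ and 188, 311, 227 and 283 in TNFR2- Tregs, without overlap (log2 fold change -0.63, adjusted p = 0.122), and is named here because of its values. It was the only 1 of the 7 lower without overlap, beside 7.29% of all genes. *Nfe2l1* stood at 0.60 on the log2 scale (SE 0.30, adjusted p = 0.265).

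Among 8 interferon and MHC class I partners of the immunoproteasome, 4 had values above 0, the median was 0.04, and *Irf1* alone passed the test. This is 1 of 8 called lower, beside 3.39% of all genes. It was also the only 1 of the 8 without overlap, beside 7.29% of all genes that were lower without overlap. *Irf1*, a transcription factor of interferon responses that controls immunoproteasome genes, had 2229, 2238, 2272 and 1633 normalized counts in TNFR2+ and 3023, 3418, 2759 and 3120 in TNFR2- Tregs, and so fell in TNFR2+ Tregs without overlap (log2 fold change -0.57, SE 0.13, adjusted p = 0.0194 from limma). It did not pass without TNFR2- replicate 2. *Tap1*, which lies on the strand opposite to *Psmb9* and overlaps it, stood at 0.11 on the log2 scale (adjusted p = 0.686).

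The cells also differed in proliferation genes, of which 7 of 10 were called higher in TNFR2+ Tregs (beside 4.52% of all genes, and 5 to 8 of 10 with 1 library left out). Of the 10, 9 had a log2 fold change above 0, with a median of 2.41, and *Pcna* went the other way (-0.17, adjusted p = 0.573 from limma). *Mki67* had 4120, 5041, 3553 and 2622 normalized counts in TNFR2+ and 837, 361, 814 and 295 in TNFR2- Tregs (log2 fold change 2.84, SE 0.32, adjusted p = 3.52e-04 from limma). The median of the proteasome genes was 0.23 on the same scale, and the part of proliferation in this difference was not tested.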

How the data were processed

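RNA was measured in 4 TNFR2+ and 4 TNFR2- Treg libraries. The authors prepared stranded total RNA libraries, trimmed reads with Trim Galore, estimated transcript abundance with Salmon 1.3.0 on the GRCm38 transcriptome, and deposited one table of gene counts normalized with DESeq2 1.28, a signal per gene that is not on a log scale. How transcripts were summed to genes, and whether strand was used, is not given in the sources used here. In 2806 long genes with 1 annotated transcript, 69.7% to 96.5% of low values of a library lay within 0.1 of whole multiples of a step (20% by chance), which gave the estimated depth. Reads of genes with several transcripts were not recovered, so no count model was fitted.

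Symbols, coordinates and transcript lengths came from the GENCODE annotation of GRCm38 (20008 of 20172 identifiers matched). On the scale of log2(normalized count + 1), the 13990 genes whose mean reached 10 were fitted with limma 3.58.1 in R 4.3.3 with an intensity trend, two-sided, with Benjamini-Hochberg adjustment over all of them and a threshold of 0.05. Single values were also tested with exact permutation over 70 relabellings, whose smallest p is 0.0286. Copies were searched with blastn 2.17.0 (at least 95% identity over at least 50% of the transcript, or over at least 90% of a copy of 300 or more aligned bases). The fit was also run on simulated data, with changes larger than most of those seen here, so that run says nothing about differences this small. Alternatives changed the variance moderation, pseudocount, filter, scaling, a replicate block and the libraries. Values per library are given for genes called, the immunoproteasome subunits and those they replace, the activators, and the highest and lowest gene of each part. Results for the ubiquitin genes are not reported here. The members, lists and tests were chosen with earlier results of these data known.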

Additional observations from a re-analysis of the deposited data

Results flagged for a closer look

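In 9 of the 98 groups of 4 libraries (49 genes, 2 groups each), 1 library stood apart from the other 3 by a gap that chance gives in about 1 of 20 groups. In TNFR2+ Tregs these were *Psma3* in replicate 3 (1003 normalized counts), *Psmd1* in replicate 2 (941), *Psmg3* in replicate 4 (40.9), *Psmb8* in replicate 3 (1904) and *Psmb11* in replicate 4 (161). In TNFR2- Tregs they were *Psmc3* in replicate 3 (629) and, in replicate 4, *Psmd7* (550), *Psmg4* (229) and *Psmb9* (425). For *Psma3* the sum with its copy *Gm13835* held no such low value.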

How the results depend on the processing

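The number of proteasome genes called (2) was 0 without an intensity trend and 1 with the replicate block (*Psma7*), 2 with robust moderation, pseudocounts of 0.5 or 5, no filter or the median-ratio scaling, and 3 (*Psma5* added) with a mean of at least 50 or an equal sum over protein-coding genes. With 1 library left out it ranged from 0 to 3. The block called 1183 genes in all against 1107 without it, and 465 were called without the intensity trend. Same-numbered libraries did not deviate together (correlations of -0.04 to 0.00), so the numbers were not treated as pairs. The median log2 fold change stayed between 0.20 and 0.33. Equal-sum scaling moved the median of all genes from -0.01 to 0.06 and that of the proteasome genes to 0.30. Differences in log2 ratio kept their sign, but a single separated ratio could not pass the threshold in this design (smallest adjusted p 0.0857 with all libraries and smallest p 0.125 with the block), so its side of the threshold says nothing here. They lay at -0.41 to -0.04 for *Psmb8* to *Psmb5*, 0.02 to 0.32 for *Psmb9* to *Psmb6* and -0.88 to -0.45 for *Psmb10* to *Psmb7* with 1 library left out, and the block left them at -0.18, 0.18 and -0.61. Of the genes that did not pass the test, 11 changed sign in some alternative. With 1 library left out the log2 fold change ran from -0.064 to 0.37 for *Psmb2*, -0.015 to 0.21 for *Psmb6*, -0.23 to 0.06 for *Psmc3*, -0.073 to 0.39 for *Psmd5*, -0.18 to 0.13 for *Psmd12*, -0.057 to 0.23 for *Psmd4*, -0.40 to 0.42 for *Psmg1*, -0.001 to 0.48 for *Psmg4*, -0.046 to 0.21 for *Psmb10*, -0.073 to 0.18 for *Psmf1* and -0.085 to 0.29 for *Psmb11*. Equal-sum scaling put *Psmc3* and *Psmd12* at 0.005. The cause of these changes was not tested.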
